A study of Mus musculus with 15 samples.

Results

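Megalin (LRP2), other receptors of the low density lipoprotein (LDL) receptor family, their endocytic partners cubilin and DAB2, and the secreted ligand reelin were examined in mouse embryonic stem (ES) cells sorted during differentiation towards blood. The members were the rows of the deposited count table with the symbols Lrp2, Lrp1, Lrp5, Lrp6, Lrp8, Vldlr, Cubn, Dab2 and Reln. All 9 were found among 24034 gene rows, and all 9 passed the filter on low counts, as did 13662 genes in all.

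The 15 RNA-seq libraries came from ES cell lines that carry a LacZ reporter driven by the promoter (P) and enhancers of the Endoglin gene (Eng), whose product is a TGF-beta co-receptor on endothelium. LacZ encodes beta-galactosidase, and FDG is a substrate that turns fluorescent when this enzyme cleaves it. The -8/P line, with the enhancer 8 kb upstream, gave 3 groups of cells labelled HEI, an abbreviation the labels do not spell out: ENG+/FDG+, ENG-/FDG+ and ENG+/FDG-. The -8/P/+7/+9 line, with 2 more enhancers at +7 and +9 kb, gave FLK1+/LacZ+ and FLK1+/LacZ- cells. FLK1 is the VEGF receptor encoded by Kdr and marks mesoderm that can form blood and endothelium. Each group had 3 libraries, numbered replicate 1 to 3 in the labels. No genotype beyond the construct, no day of differentiation and no separate cultures are named, so p-values measure the spread between these libraries, which may be technical. HEI and FLK1+ cells also differ in reporter line, and stage and line cannot be told apart.

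Members of the LDL receptor family are cell-surface proteins that bind lipoproteins, proteases, carrier proteins and signalling ligands and take them up through clathrin-coated pits. Megalin is a giant receptor of absorptive epithelia such as the kidney tubule and the yolk sac endoderm, where it works with cubilin, a receptor without a transmembrane segment, and with the cytoplasmic adaptor DAB2. VLDLR and APOER2 (encoded by Lrp8) are the receptors of reelin and signal through the adaptor DAB1 in migrating neurons, whereas LRP5 and LRP6 are co-receptors for WNT ligands.

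The promoters of 4 members are shown, those that separated ENG-/FDG+ from both ENG+ HEI groups. Between these HEI groups Lrp2 and Reln moved one way and Cubn and Dab2 the other. Each line gives the 250 bases before a RefSeq transcript start (GRCm38.p6), 5′ to 3′ on the strand of the gene, and capitals mark CG dinucleotides (CpG).
Lrp2: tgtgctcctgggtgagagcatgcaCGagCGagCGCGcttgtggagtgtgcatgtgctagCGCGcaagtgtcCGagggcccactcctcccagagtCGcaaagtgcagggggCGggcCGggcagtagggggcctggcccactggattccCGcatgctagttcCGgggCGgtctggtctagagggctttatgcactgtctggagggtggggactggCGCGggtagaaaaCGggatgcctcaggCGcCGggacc
Reln: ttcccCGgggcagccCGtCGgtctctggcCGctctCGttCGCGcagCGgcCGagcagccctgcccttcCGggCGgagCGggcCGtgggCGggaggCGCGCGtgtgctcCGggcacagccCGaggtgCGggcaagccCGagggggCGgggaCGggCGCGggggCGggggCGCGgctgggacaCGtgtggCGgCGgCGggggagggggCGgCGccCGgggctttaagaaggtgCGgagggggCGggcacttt
Cubn: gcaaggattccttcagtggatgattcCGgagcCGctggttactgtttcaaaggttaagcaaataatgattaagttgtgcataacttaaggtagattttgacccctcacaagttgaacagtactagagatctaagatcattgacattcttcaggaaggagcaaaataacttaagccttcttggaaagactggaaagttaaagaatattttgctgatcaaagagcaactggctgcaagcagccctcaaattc
Dab2, upstream start: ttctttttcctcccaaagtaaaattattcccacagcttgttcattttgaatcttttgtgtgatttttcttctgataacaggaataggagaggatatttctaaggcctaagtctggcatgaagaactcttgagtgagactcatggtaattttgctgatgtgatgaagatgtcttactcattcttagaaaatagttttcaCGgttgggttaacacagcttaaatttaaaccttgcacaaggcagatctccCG
Dab2, downstream start: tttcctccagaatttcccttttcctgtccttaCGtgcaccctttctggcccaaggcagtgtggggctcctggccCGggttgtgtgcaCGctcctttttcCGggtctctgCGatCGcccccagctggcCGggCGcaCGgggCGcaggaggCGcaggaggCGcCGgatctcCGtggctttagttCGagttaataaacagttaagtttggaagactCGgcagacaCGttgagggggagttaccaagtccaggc

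The Lrp2 window (chr2:69586030-69586279, minus strand) had 66.4% G and C and 18 CpG. The Reln window (chr5:22344706-22344955, minus strand) had 80% G and C and 37 CpG, a number reached by 2.2% of 32851 mouse promoter windows of the same length. For the whole set the median was 52.4% G and C and 6 CpG. The Cubn window (chr2:13491877-13492126, minus strand) had 39.6% G and C and 2 CpG. Dab2 has 2 annotated windows. The upstream one (chr15:6299539-6299788, plus strand) had 36.8% G and C and 2 CpG, and the downstream one (chr15:6386498-6386747, plus strand) had 60% G and C and 17 CpG. The gene-level counts do not tell which start was used.

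A set of 4 short motifs of factors known from blood and endothelium was searched on both strands: TGTGGT for RUNX factors, AGATAA for GATA factors, GGAAGT for ETS factors and CAGCTG, an E-box. They occur in 14%, 9.99%, 19.7% and 13% of all promoter windows, in that order. The downstream Dab2 window held 1 E-box, and the other windows printed here held no match to any of the motifs, which says only that these letters are not in these windows.

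Library totals were between 12188618 and 16337785 counts in the replicate 1 libraries and between 9673396 and 11747575 counts in the others. Replicate 1 stood apart in all 5 groups: the rRNA row Rn45s took 1.40 to 3.56% of its counts, against 0.524 to 0.784% in replicates 2 and 3. Levels are given as CPM, the counts of a gene per library total scaled by TMM factors, listed in the order replicate 1, 2 and 3. The sort by ENG was visible in the RNA: Eng was at 904.2, 180.2 and 186.4 CPM in ENG+/FDG+ HEI cells, against 160.9, 39.43 and 45.07 CPM in ENG-/FDG+ HEI cells, so the groups did not overlap. Runx1, which encodes a transcription factor needed for blood formation, averaged 31.2 ± 1.60 CPM in ENG+/FDG+ HEI cells, against 273 ± 35.2 CPM in ENG-/FDG+ HEI cells (SD, n = 3 each). Cdh5, the endothelial cadherin, averaged 1847 ± 494 CPM and 852 ± 20.9 CPM in the same groups.

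Among the 5 groups, Lrp2 had its highest mean level in ENG-/FDG+ HEI cells. Its levels were 5.01, 2.86 and 5.37 CPM in ENG+/FDG+ HEI cells, 45.1, 11.3 and 22.1 CPM in ENG-/FDG+ HEI cells, and 3.46, 4.05 and 7.45 CPM in ENG+/FDG- HEI cells. They were 19.2, 3.80 and 6.16 CPM in FLK1+/LacZ+ cells and 3.997, 3.88 and 5.38 CPM in FLK1+/LacZ- cells. All 3 ENG-/FDG+ libraries lay above every library of both ENG+ HEI groups, while FLK1+/LacZ+ overlapped with both neighbours in the order of means, with ENG-/FDG+ HEI only through its replicate 1. The counts behind these levels ran between 30 and 531 reads per library.

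Lrp2 lies at chr2:69424340-69586065 (minus strand, GRCm38). Its fitted difference was -2.56 ± 0.64 on the log2 scale (± SE) for ENG+/FDG+ against ENG-/FDG+ HEI cells, 5.92-fold lower, with an edgeR adjusted p of 0.126 over all 13662 genes. With the replicate number as a block, the difference was -2.46 ± 0.46 with an adjusted p of 0.00497, so the block brought it past the threshold of 0.05. DESeq2 without a block called it too, at -2.56 ± 0.61 (DESeq2 adjusted p = 0.0027). Within replicates 2 and 3 alone it was -1.97 ± 0.45 (edgeR adjusted p = 0.00951).

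ENG-/FDG+ against ENG+/FDG- HEI cells gave 2.39 ± 0.63 for Lrp2 (edgeR adjusted p = 0.162) and 2.21 ± 0.46 with the replicate block (adjusted p = 0.00881). DESeq2 without a block gave 2.37 ± 0.61 (DESeq2 adjusted p = 0.00732). The replicate 1 pair differed by 3.64 log2 units, whereas replicate 2 and replicate 3 differed by 1.45 and 1.55. Both HEI comparisons share the ENG-/FDG+ libraries. The test for any difference among the 5 groups called Lrp2 (edgeR adjusted p = 0.0131), and without replicate 1 of ENG-/FDG+ HEI it did not (adjusted p = 0.071).

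That library also carried other cell markers. The summed level of 8 smooth muscle and mesenchyme markers was 117.6 to 574 CPM in ENG+/FDG+ HEI cells. It was 5161 CPM in ENG-/FDG+ replicate 1 and 349.6 and 772.6 CPM in replicates 2 and 3 of that group, against 260.7 to 471 CPM in ENG+/FDG- HEI cells. Acta2, smooth muscle actin, gave 3602 CPM of the replicate 1 sum, and all 8 genes were higher there than in replicates 2 and 3. The 8 nascent mesoderm markers summed to 650.4 CPM in ENG-/FDG+ replicate 1 and to 37.7 and 46.9 CPM in the other ENG-/FDG+ libraries. Hand1 alone was at 643.3 CPM in replicate 1, while T, Mixl1 and Mesp1 were at 0 there. The 9 neural and ectoderm markers summed to 203.3 CPM in ENG-/FDG+ replicate 1 and to 17.1 and 35.9 CPM in replicates 2 and 3. Their sum was 8.0 to 22.2 CPM in ENG+/FDG+ and 11.2 to 18.2 CPM in ENG+/FDG- HEI cells. Of these markers, Krt8, a keratin, averaged 72.1 ± 90.7 CPM in ENG-/FDG+ HEI cells (SD, n = 3), while Sox1 and Neurog2 were at 0 in that group. The sum of 9 early haematopoietic markers ran between 262 and 338 CPM in ENG+/FDG+ HEI cells, between 712 and 920 CPM in ENG-/FDG+ HEI cells, and between 279 and 351 CPM in ENG+/FDG- HEI cells. The part of these cells in the Lrp2 level was not tested, and in bulk RNA fewer cells of a type and less RNA per cell cannot be told apart. Without replicate 1, Lrp2 averaged 4.11, 16.7 and 5.75 CPM in ENG+/FDG+, ENG-/FDG+ and ENG+/FDG- HEI cells.

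**Figure D1:**
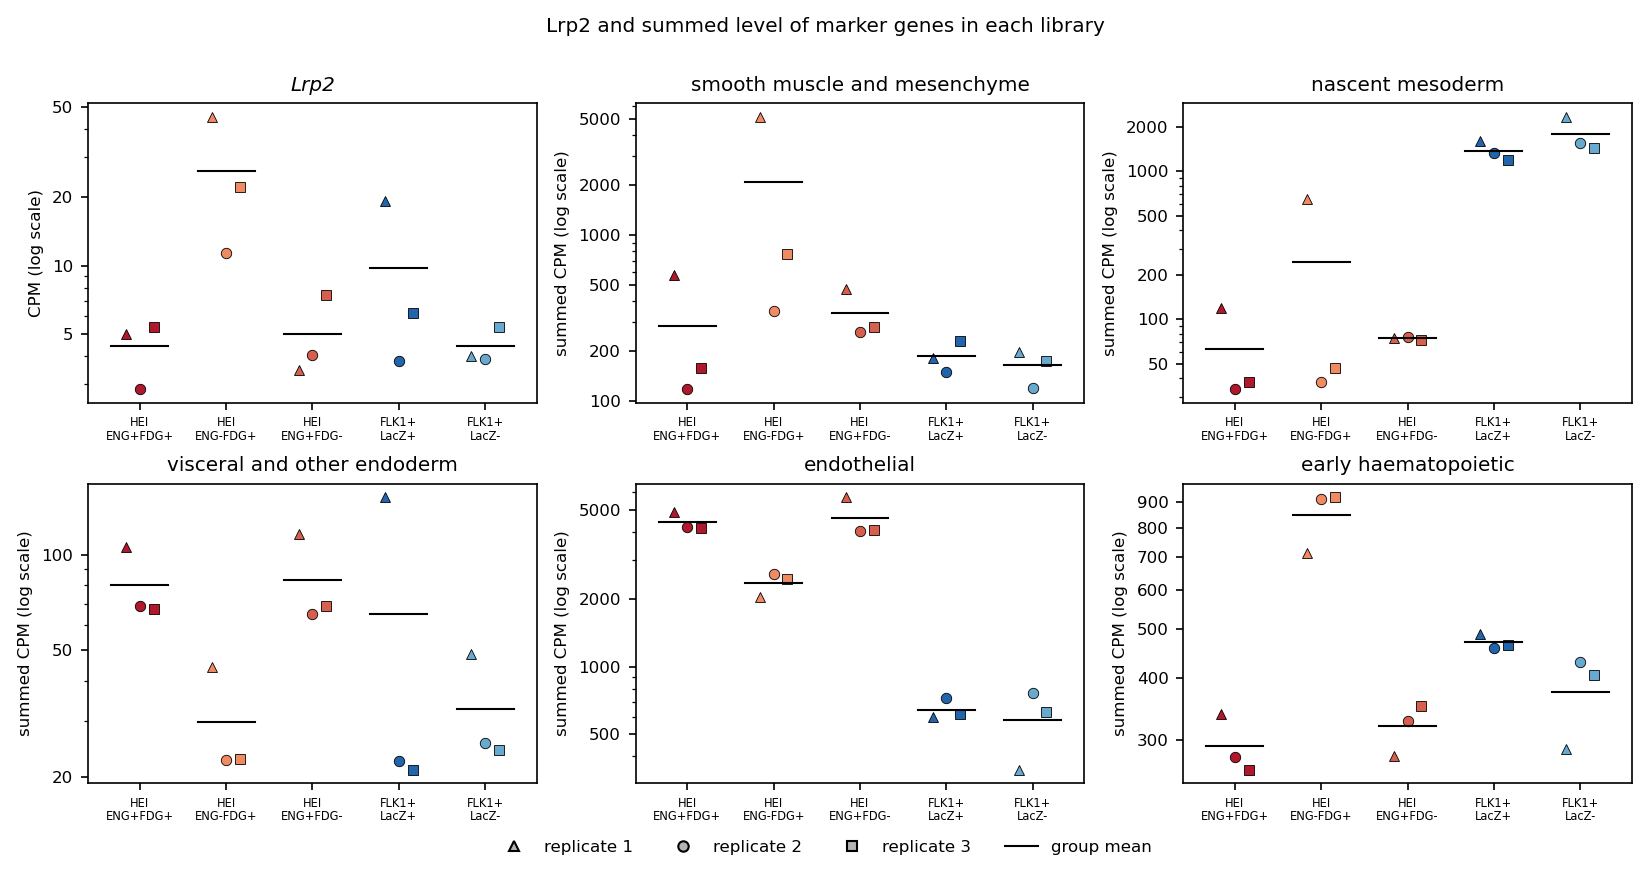
Level of Lrp2 and summed level of 5 marker lists in each library (CPM, log axes), by group and replicate; lines are group means. Lrp2 was highest in ENG-/FDG+ HEI replicate 1 (45.1 CPM), where the smooth muscle and mesenchyme sum was 5161 CPM, and the endoderm sum was highest in FLK1+/LacZ+ replicate 1 (151 CPM, mostly Epcam and Cldn6).

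In FLK1+ cells, Lrp2 averaged 9.71 ± 8.27 CPM with LacZ and 4.42 ± 0.833 CPM without (SD, n = 3 each), a log2 difference of 1.14 ± 0.61 that did not pass (edgeR adjusted p = 1). The pairs of replicate 1, 2 and 3 differed by 2.22, -0.03 and 0.19. In FLK1+/LacZ+ replicate 1 the 14 endoderm markers summed to 151 CPM, against 22.5 and 21.1 CPM in its other libraries and 24.3 to 48.7 CPM in FLK1+/LacZ- cells. Most of that sum came from Epcam (72.55 CPM) and Cldn6 (60.48 CPM), which other epithelia express too, while Afp and Ttr were at 0 there. Amn, which encodes amnionless, the membrane anchor of cubilin, had 18 reads in that library and at most 8 in any other.

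Cubilin followed the opposite order to megalin in the HEI groups. Cubn was at 14.3, 9.81 and 15.3 CPM in ENG+/FDG+ HEI cells, 2.97, 5.10 and 5.11 CPM in ENG-/FDG+ HEI cells, and 10.4, 11.1 and 11.2 CPM in ENG+/FDG- HEI cells. FLK1+/LacZ+ cells had 0.894, 1.80 and 1.03 CPM and FLK1+/LacZ- cells 0.140, 1.20 and 1.58 CPM, which rest on 2 to 18 reads per library. Every HEI library was above every FLK1+ library, and both ENG+ groups were above ENG-/FDG+ without overlap.

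Cubn (chr2:13276338-13491813, minus strand) rose in HEI against FLK1+ cells by 2.97 ± 0.41 log2 units, 7.84-fold, with an edgeR adjusted p of 9.34e-05. Within HEI cells, ENG+/FDG+ against ENG-/FDG+ gave 1.58 ± 0.56 with an edgeR adjusted p of 0.324, and 1.65 ± 0.42 with the replicate block (adjusted p = 0.0249). DESeq2 without a block gave 1.60 ± 0.48 in this comparison (DESeq2 adjusted p = 0.0322). ENG-/FDG+ against ENG+/FDG- gave -1.31 ± 0.55 (edgeR adjusted p = 0.455), and the block did not bring this past the threshold (adjusted p = 0.053). It was past it in replicates 2 and 3 alone, where the difference was -1.16 ± 0.25 (edgeR adjusted p = 0.00155).

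Amn was close to 0 where Cubn was high, with at most 1 read in any HEI library. Among the 14 endoderm markers, Afp, Ttr, Foxa1 and Cldn6 were at 0 in all 3 ENG+/FDG+ libraries, and Afp, Ttr and Hnf4a in all 3 ENG+/FDG- libraries. The endoderm sum of 67.3 to 105.5 CPM in ENG+/FDG+ and 65.1 to 115.8 CPM in ENG+/FDG- HEI cells was mostly Sox17, which endothelium also expresses and which was at 64.4 to 94.7 CPM and 60.7 to 107.3 CPM in those groups.

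Set against each other per length of exon, Cubn over Lrp2 was 3.41 ± 0.374 in ENG+/FDG+, 0.278 ± 0.215 in ENG-/FDG+ and 2.71 ± 0.903 in ENG+/FDG- HEI cells (ratio of CPM per kb, SD, n = 3 each). It was 0.256 ± 0.246 in FLK1+/LacZ+ and 0.238 ± 0.172 in FLK1+/LacZ- cells. Cubilin RNA thus exceeded megalin RNA per length in each of the 6 ENG+ HEI libraries and in no other library. The lowest ratio of an ENG+ library was 1.68 and the highest of the rest 0.530.

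**Figure D2:**
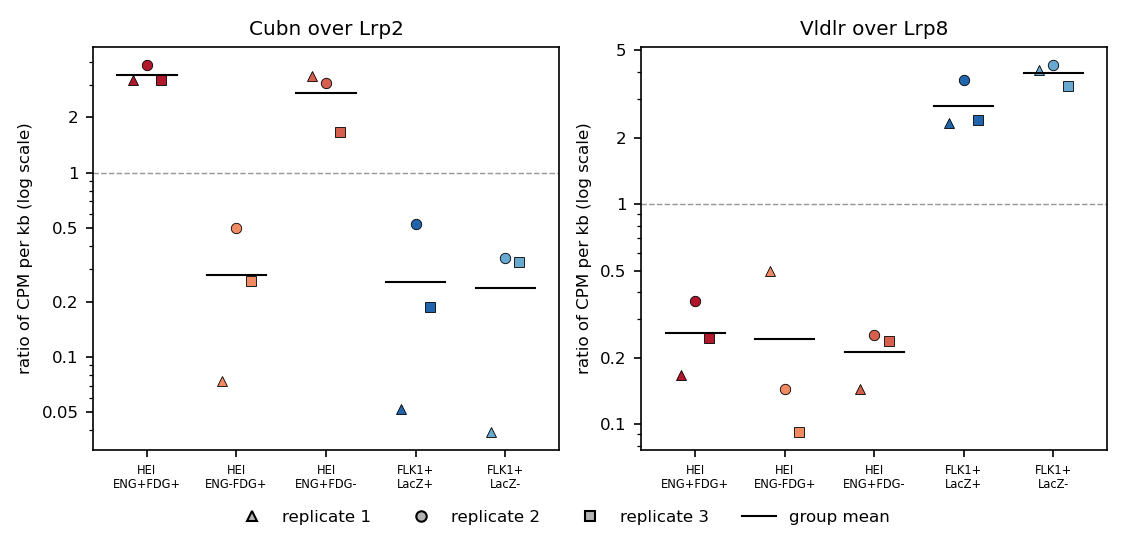
Ratio of CPM per kb of exon for Cubn over Lrp2 (left) and Vldlr over Lrp8 (right) in each library, on log axes with a dashed line at 1 and group means as lines. Cubn exceeded Lrp2 in the ENG+ HEI libraries (1.68 to 3.84), and Vldlr exceeded Lrp8 in the FLK1+ libraries (2.35 to 4.28).

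Dab2, the clathrin adaptor that binds the tails of megalin and LRP1, was higher in the ENG+ HEI groups than in the other groups. Its levels were 155, 142 and 165 CPM in ENG+/FDG+ HEI cells, 116, 35.3 and 42.3 CPM in ENG-/FDG+ HEI cells, and 219, 122 and 141 CPM in ENG+/FDG- HEI cells. FLK1+/LacZ+ cells had 23.4, 36.0 and 43.4 CPM and FLK1+/LacZ- cells 19.6, 26.8 and 33.6 CPM. The ENG+ HEI libraries all lay above the ENG-/FDG+ ones, and replicates 2 and 3 of ENG-/FDG+ lay within the range of FLK1+/LacZ+ cells.

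Dab2 (chr15:6299788-6440712, plus strand) rose in HEI against FLK1+ cells by 1.95 ± 0.29 log2 units, 3.87-fold (edgeR adjusted p = 0.000163). ENG+/FDG+ against ENG-/FDG+ HEI cells gave 1.26 ± 0.42 (edgeR adjusted p = 0.294) and 1.32 ± 0.38 with the replicate block (adjusted p = 0.0425). The replicate 1 pair differed by 0.42 log2 units and the replicate 2 and 3 pairs by 2.0 and 1.96, all in the same direction. ENG-/FDG+ against ENG+/FDG- HEI cells gave -1.32 ± 0.42 (edgeR adjusted p = 0.262), -1.36 ± 0.38 with the block (adjusted p = 0.0367), and -2.09 without replicate 1 of ENG-/FDG+ (edgeR adjusted p = 0.0409).

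Of 16 tested endocytic partners of megalin and cubilin, 1 rose and 0 fell in ENG+/FDG+ against ENG-/FDG+ HEI cells, beside 0.139% of all genes in each direction. The gene was Itsn1, a scaffold of coated pits, at 62.2 ± 3.0 CPM in ENG+/FDG+ HEI cells, against 28.3 ± 3.17 CPM in ENG-/FDG+ HEI cells (log2 difference 1.14 ± 0.17, edgeR adjusted p = 0.0192). With the block Myo6, the motor that carries endocytic vesicles away from the membrane, rose too by 0.92 (adjusted p = 0.0224). In HEI against FLK1+ cells 2 of the 16 rose and 1 fell, beside 17% of all genes that rose and 20.3% that fell. Myo6 rose by 3.34 ± 0.30 (edgeR adjusted p = 3.09e-06) and Cltb, a clathrin light chain, by 2.04 ± 0.53, while Itsn1 fell by 0.997 ± 0.107. In the fit with the block 10 rose and 2 fell, beside 66.2% of all genes called.

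Reelin differed most between HEI groups among the 9 genes. Reln was at 1.89, 4.95 and 3.87 CPM in ENG+/FDG+ HEI cells, 18.3, 92.5 and 78.7 CPM in ENG-/FDG+ HEI cells, and 1.33, 7.31 and 6.32 CPM in ENG+/FDG- HEI cells. FLK1+/LacZ+ cells had 55.7, 76.4 and 83.8 CPM and FLK1+/LacZ- cells 35.6, 58.0 and 70.0 CPM. Every library of the ENG-/FDG+ and FLK1+ groups was above every ENG+ HEI library. ENG-/FDG+ overlapped with both FLK1+ groups, and its replicate 1 was the lowest of these 9 libraries.

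Reln (chr5:21884454-22344702, minus strand) fell 17.8-fold in ENG+/FDG+ against ENG-/FDG+ HEI cells, a log2 difference of -4.15 ± 0.71 (edgeR adjusted p = 0.0436). It was the only member of the 9 called in this comparison, in which 0.278% of all genes were called. Reln rose in ENG-/FDG+ against ENG+/FDG- HEI cells by 3.67 ± 0.69 log2 units, 12.7-fold (edgeR adjusted p = 0.0453), again as the only member called, beside 0.351% of all genes. That all 3 pairs went the same way in both comparisons follows from groups that did not overlap, and both comparisons share the ENG-/FDG+ libraries.

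Both Reln calls lay close to the threshold. Leaving out 1 of the 15 libraries in turn moved the first difference between -4.58 and -3.77, and it stayed past the threshold only without replicate 1 of FLK1+/LacZ-, FLK1+/LacZ+, ENG+/FDG- HEI or ENG-/FDG+ HEI. The second moved between 3.21 and 4.08 and stayed past it only without replicate 1 of FLK1+/LacZ- or of ENG-/FDG+ HEI. In edgeR fits on only the groups compared, the adjusted p of Reln was 0.313 in the first and 0.461 in the second. With no filter on low counts the second call was lost too (3.64 ± 0.66, edgeR adjusted p = 0.0549). With the replicate block the differences were -4.01 ± 0.36 (adjusted p = 5.56e-05) and 3.64 ± 0.35 (adjusted p = 9.2e-05).

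With the block, 5 of the 9 members were called in ENG+/FDG+ against ENG-/FDG+ HEI cells, where 10.8% of all genes were called. Cubn, Dab2 and Lrp5 rose, beside 5.1% of all genes, and Lrp2 and Reln fell, beside 5.75%. In ENG-/FDG+ against ENG+/FDG- HEI cells 4 of 9 were called, beside 11.1% of all genes: Lrp2 and Reln rose, beside 5.44%, and Dab2 and Lrp5 fell, beside 5.65%. In replicates 2 and 3 alone 5 and 7 of 9 members were called in these comparisons, beside 29.3% and 27.1% of all genes. Without a block, the groups did not overlap for 4 of 9 members in each comparison (Lrp2, Cubn, Dab2 and Reln), against 14.4% and 14.6% of all genes. The median log2 difference of the 9 members was 0.07 and 0.01 in these comparisons, against -0.05 and 0.05 for all genes.

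**Figure D3:**
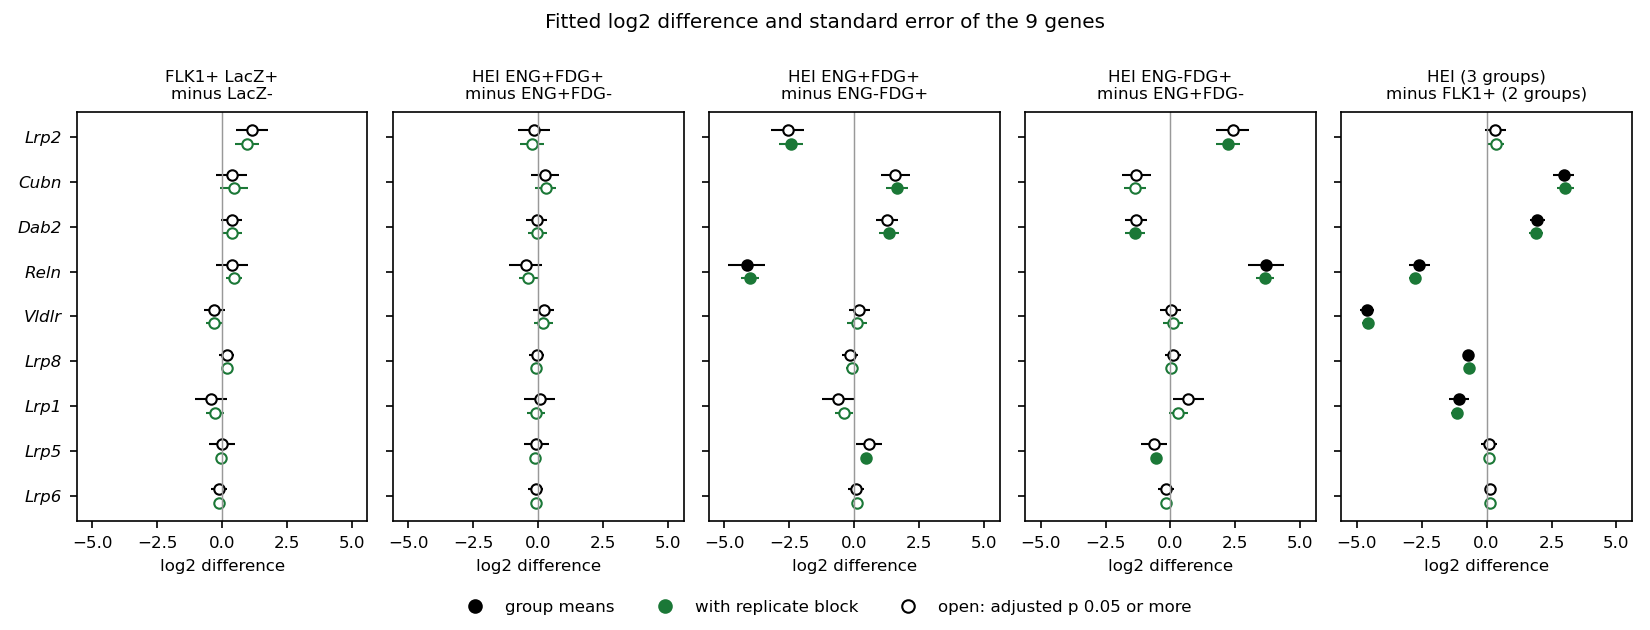
Fitted log2 difference ± SE of the 9 genes in the 5 comparisons, from the fit on group means (black) and with the replicate block (green); filled points have an adjusted p under 0.05. Only Reln was filled in black within HEI cells, and 6 of the 9 genes were filled in HEI against FLK1+ cells.

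Of the reelin receptors, Vldlr separated HEI from FLK1+ libraries and Lrp8 did not. Vldlr was at 7.68, 14.6 and 11.7 CPM in ENG+/FDG+ HEI cells, 15.95, 7.79 and 5.79 CPM in ENG-/FDG+ HEI cells, and 7.22, 10.8 and 11.3 CPM in ENG+/FDG- HEI cells. It was at 135, 288 and 256 CPM in FLK1+/LacZ+ cells and 204, 318 and 310 CPM in FLK1+/LacZ- cells. No HEI library came near an FLK1+ library, and the 3 HEI groups overlapped with each other.

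Vldlr (chr19:27216484-27254231, plus strand) fell 24.4-fold in HEI against FLK1+ cells, by 4.61 ± 0.28 log2 units (edgeR adjusted p = 1.34e-07). Lrp8 (chr4:107802261-107876840, plus strand), the other reelin receptor, averaged 46.4 ± 3.96, 51.8 ± 16.4 and 48.5 ± 4.05 CPM in ENG+/FDG+, ENG-/FDG+ and ENG+/FDG- HEI cells, against 84.5 ± 25.6 and 74.5 ± 21.1 CPM in FLK1+/LacZ+ and FLK1+/LacZ- cells (SD, n = 3 each). It fell by 0.70 ± 0.19 log2 units, 1.62-fold (edgeR adjusted p = 0.0106), with overlapping libraries. Vldlr over Lrp8 per length was 0.260 ± 0.0984, 0.244 ± 0.219 and 0.213 ± 0.0605 in the 3 HEI groups in the same order, against 2.81 ± 0.737 and 3.94 ± 0.438 in FLK1+/LacZ+ and FLK1+/LacZ- cells. Lrp8 RNA was thus the higher per length in every HEI library and Vldlr RNA in every FLK1+ library.

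Within HEI cells Vldlr did not move one way across replicates. ENG+/FDG+ against ENG-/FDG+ gave -1.04, 0.89 and 0.996 log2 units in the pairs of replicate 1, 2 and 3, and the fitted difference was 0.20 ± 0.41 (edgeR adjusted p = 1). In replicates 2 and 3 alone it was 1.02 ± 0.16 (edgeR adjusted p = 5.2e-05). ENG-/FDG+ replicate 1, whose mesenchyme markers are given above, had the highest Vldlr of its group.

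Reln fell in HEI against FLK1+ cells by 2.59 ± 0.40 log2 units, 6.04-fold (edgeR adjusted p = 0.000238). This contrast averages the groups on the log2 scale. In CPM the group means averaged 63.25 in FLK1+ cells and 23.92 in HEI cells, a smaller fold. The 3 HEI groups did not share this level, since ENG-/FDG+ averaged 63.2 ± 39.5 CPM, against 72.0 ± 14.6 CPM in FLK1+/LacZ+ and 54.5 ± 17.4 CPM in FLK1+/LacZ- cells. Of 14 tested genes of the reelin pathway, 1 rose and 2 fell, a smaller share than the 37.3% called among all genes. Fyn, a kinase that phosphorylates DAB1, rose by 1.77 ± 0.26 (edgeR adjusted p = 0.000156), Dab1 itself fell by 2.19 ± 0.31 (edgeR adjusted p = 0.000112), and Crkl, an adaptor that binds phosphorylated DAB1, fell by 0.32 ± 0.12. With the replicate block 4 rose and 3 fell, beside 66.2% of all genes called. None of the 14 was called between HEI groups without a block.

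LRP1, a scavenger and signalling receptor found on most cells, was read with more scatter. Lrp1 (chr10:127538161-127621148, minus strand) was at 115, 47.6 and 55.3 CPM in ENG+/FDG+ HEI cells, 247, 39.7 and 49.9 CPM in ENG-/FDG+ HEI cells, and 78.2, 63.8 and 66.8 CPM in ENG+/FDG- HEI cells. FLK1+/LacZ+ cells had 171, 145 and 126 CPM and FLK1+/LacZ- cells 321, 137 and 138 CPM. Replicate 1 was the highest library in every group, and apart from ENG-/FDG+ replicate 1 every HEI library lay below every FLK1+ library.

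Lrp1 fell in HEI against FLK1+ cells by 1.05 ± 0.38 log2 units, 2.07-fold, with an edgeR adjusted p of 0.047 and an adjusted p of 0.00057 with the replicate block. The call without a block was lost when any 1 of 11 of the 15 libraries was left out, and its highest adjusted p was 0.143, without replicate 1 of FLK1+/LacZ-. Without replicate 1 of ENG-/FDG+ HEI the difference was -1.47 (edgeR adjusted p = 0.000525). A filter of 5 CPM in 3 libraries ended the call too (adjusted p = 0.0542), as did no filter (adjusted p = 0.0714).

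The WNT co-receptors differed between replicates more than between groups. Lrp6 (chr6:134446476-134566965, minus strand) averaged 209 ± 39.7, 199 ± 50.2 and 224 ± 63.0 CPM in ENG+/FDG+, ENG-/FDG+ and ENG+/FDG- HEI cells, against 186 ± 49.2 and 202 ± 40.3 CPM in FLK1+/LacZ+ and FLK1+/LacZ- cells (SD, n = 3 each). All 5 replicate 1 libraries (130 to 169 CPM) were below all 10 others (206 to 284 CPM). The difference between HEI and FLK1+ cells was 0.12 ± 0.19 (edgeR adjusted p = 0.68), and in replicates 2 and 3 alone 0.21 ± 0.07 (adjusted p = 0.0208).

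Lrp5 (chr19:3584828-3686564, minus strand) averaged 67.4 ± 38.4, 45.8 ± 12.5 and 71.0 ± 33.2 CPM in the HEI groups in the same order, against 56.5 ± 29.4 and 56.9 ± 26.6 CPM in FLK1+/LacZ+ and FLK1+/LacZ- cells. Its replicate 1 libraries (59.9 to 112 CPM) were all above the others (36.4 to 55.4 CPM). ENG+/FDG+ against ENG-/FDG+ HEI cells gave 0.56 ± 0.49 (edgeR adjusted p = 0.906) and 0.45 ± 0.14 with the replicate block (adjusted p = 0.0474). ENG-/FDG+ against ENG+/FDG- gave -0.63 ± 0.49 (edgeR adjusted p = 0.829) and -0.56 ± 0.14 with the block (adjusted p = 0.0173). The ENG-/FDG+ library was the lowest HEI library in each replicate.

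Per length, Lrp6 was at 13.6 to 16.4 CPM per kb over the 5 group means and Lrp5 at 4.70 to 7.29 CPM per kb. Of 12 tested genes on the ligand side of LRP5 and LRP6 and among their signal partners, 0 rose and 3 fell in HEI against FLK1+ cells, beside 17% and 20.3% of all genes. Axin2, a WNT target and inhibitor, fell by 3.96 ± 0.21 log2 units (edgeR adjusted p = 5.77e-08), Dkk1, a secreted inhibitor that binds LRP5 and LRP6, fell by 4.55 ± 0.48 (edgeR adjusted p = 1.13e-05), and Dvl2, a cytoplasmic transducer of WNT signals, fell by 0.88 ± 0.21. With the replicate block 2 rose and 6 fell, a share near the 66.2% called among all genes.

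**Figure D4:**
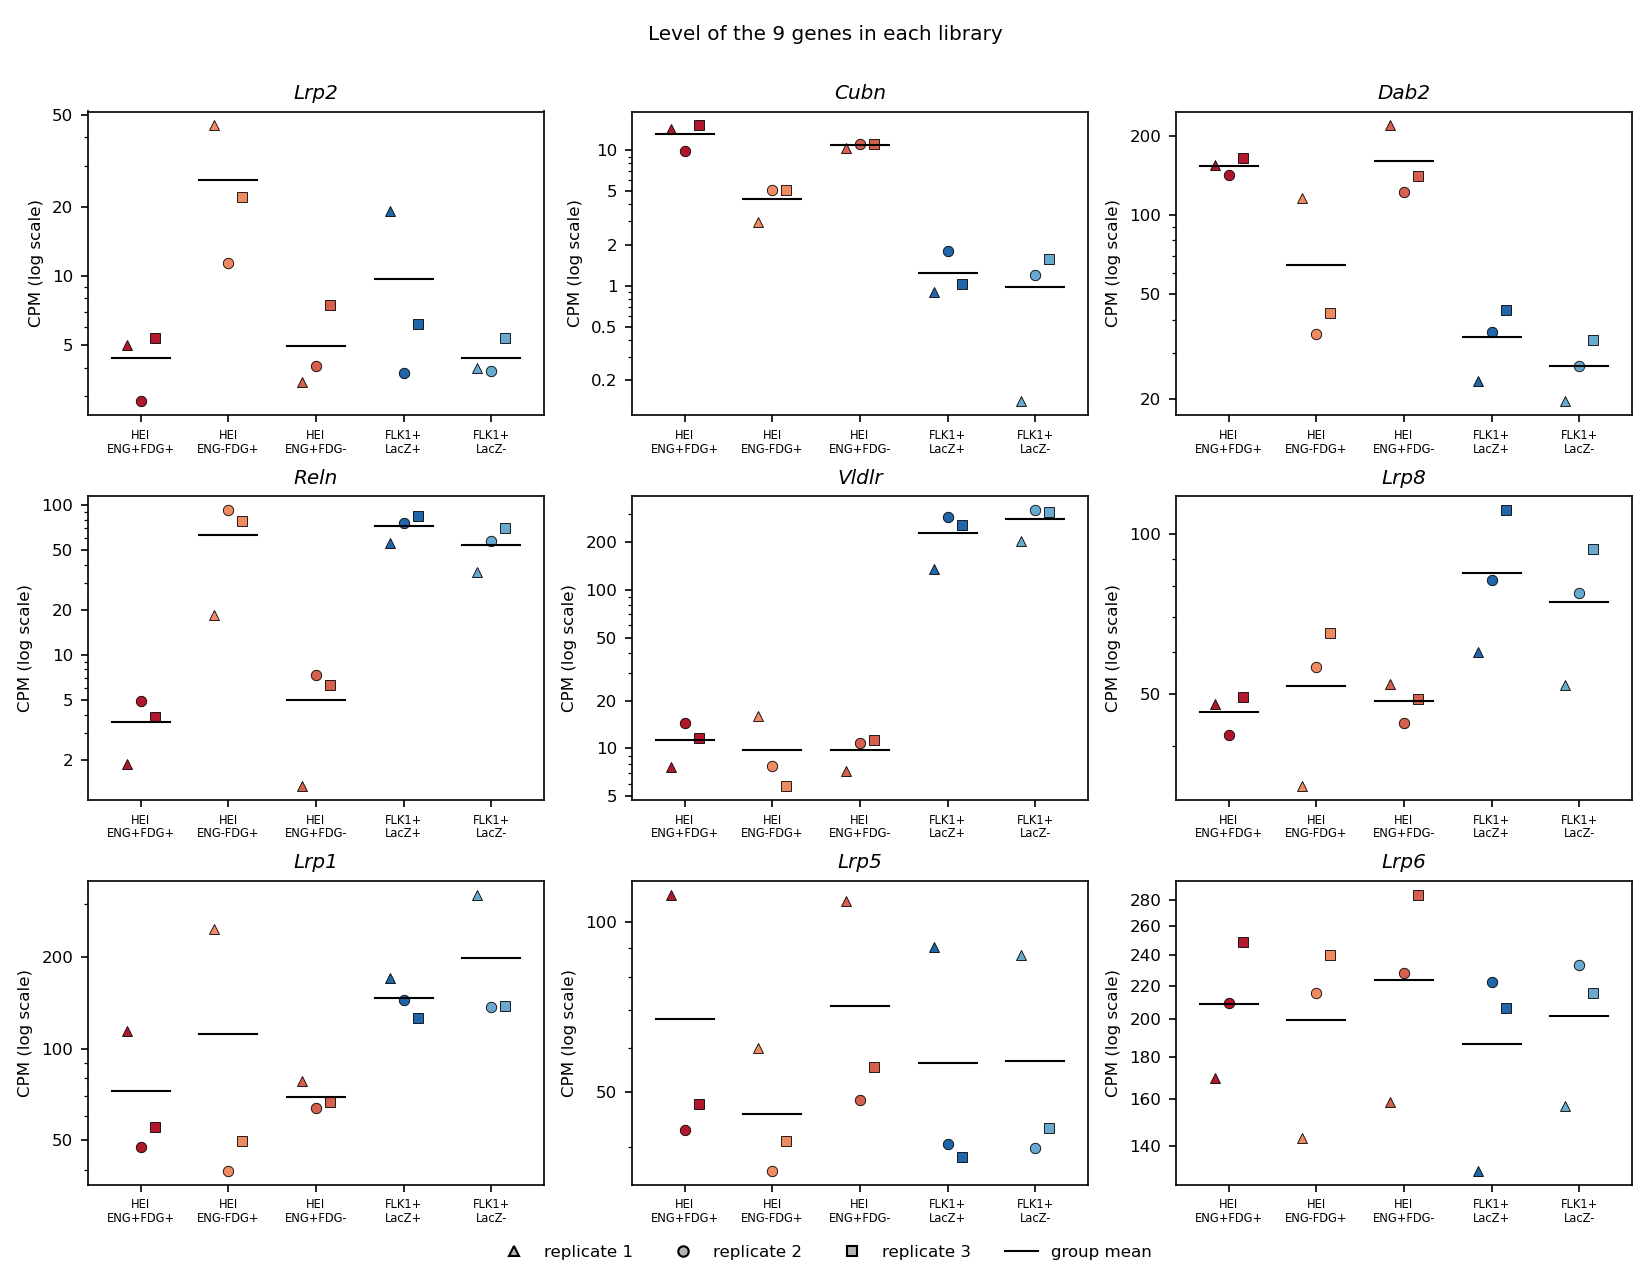
Level of the 9 genes in each of the 15 libraries (CPM, log axes), by group and replicate, with group means as lines. Vldlr separates FLK1+ libraries (135 to 318 CPM) from HEI libraries (5.79 to 15.95 CPM), and Reln separates ENG+ HEI libraries (1.33 to 7.31 CPM) from all others (18.3 to 92.5 CPM).

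In HEI against FLK1+ cells 6 of the 9 members were called, beside 37.3% of all genes, and the groups did not overlap for 2 of 9 (Vldlr and Cubn), beside 18.2% of all genes. Of the 6, Cubn and Dab2 rose, beside 17% of genes that rose, and Vldlr, Reln, Lrp8 and Lrp1 fell, beside 20.3% that fell. With the replicate block 6 were called beside 66.2% of all genes, and in replicates 2 and 3 alone 8 beside 73.7%. Lrp2 gave 0.34 ± 0.40 and was not called (edgeR adjusted p = 0.543). The test for any difference among the 5 groups called 5 members (Vldlr, Reln, Cubn, Dab2 and Lrp2), beside 23.2% of all genes. With the replicate block it called 8, all but Lrp6, beside 58.4%.

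Of 12 other LDL receptor family genes and chaperones tested, 2 rose and 2 fell in HEI against FLK1+ cells, near the 37.3% called among all genes, and 0 were called between HEI groups. Lrp11 rose by 2.003 ± 0.261 log2 units (edgeR adjusted p = 5.99e-05) and Mylip, a ubiquitin ligase that removes VLDLR, by 0.71 ± 0.25. Sorl1, a sorting receptor, fell by 1.41 ± 0.28, and Lrp4, a receptor of agrin, by 0.70 ± 0.15.

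Of 14 tested ligands of megalin and its relatives, 5 rose and 4 fell in HEI against FLK1+ cells, beside 17% and 20.3% of all genes. Thbs1, the matrix protein thrombospondin 1, rose by 5.14 ± 0.61 (edgeR adjusted p = 2.89e-05) and Plat, a plasminogen activator, by 3.81 ± 0.40 (edgeR adjusted p = 1.05e-05). Bmp4, a morphogen of mesoderm, fell by 2.48 ± 0.24 (edgeR adjusted p = 6.1e-06), and Mdk, the growth factor midkine, by 2.24 ± 0.35 (edgeR adjusted p = 0.000248). In the fit with the block 9 rose and 5 fell, beside 66.2% of all genes called. None was called between HEI groups without a block, and the median of the list was 0.56, against -0.11 for all genes.

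**Figure D5:**
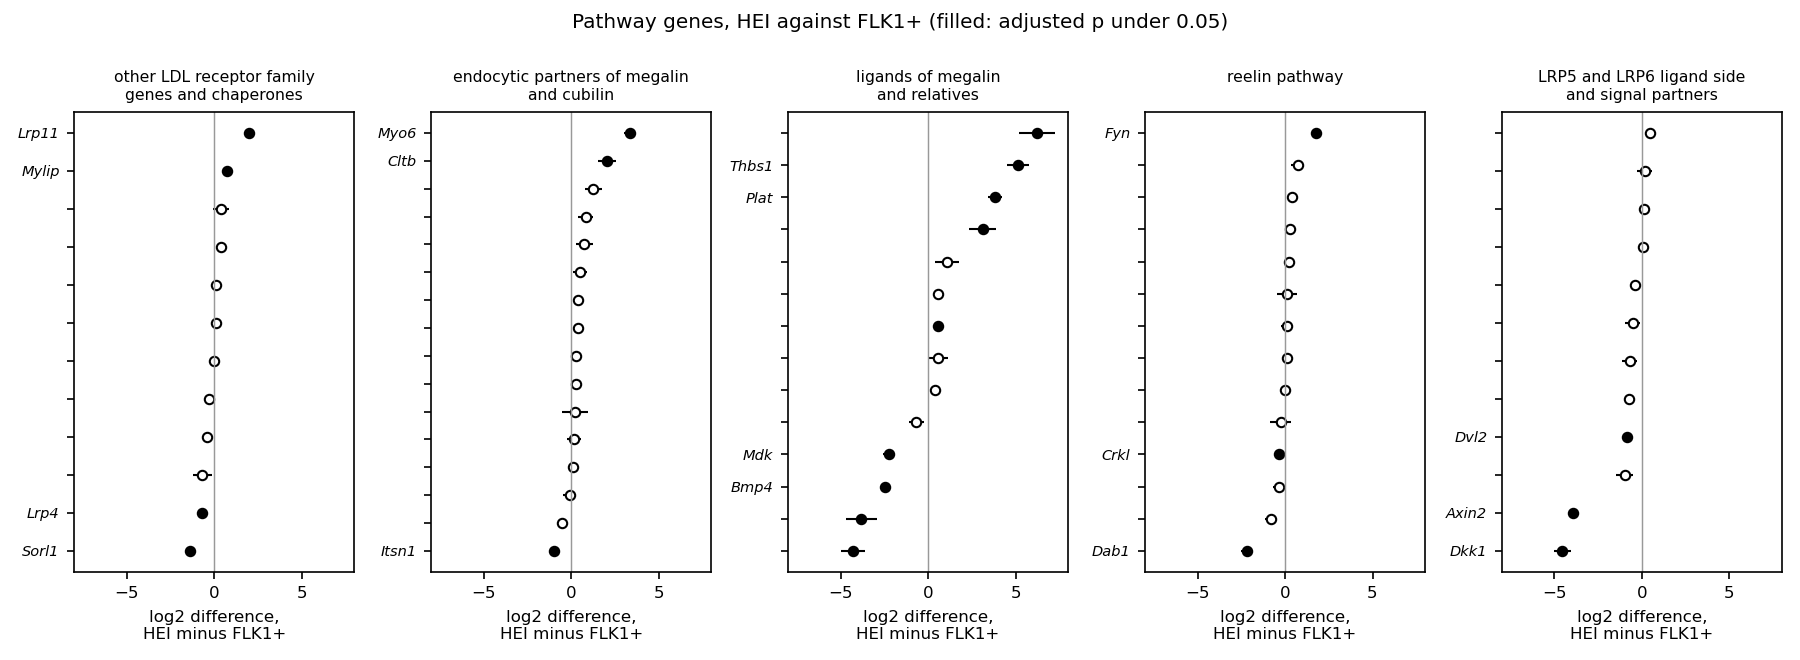
Log2 difference ± SE of the tested genes of 5 pathway lists in HEI against FLK1+ cells, sorted within each list; filled points have an edgeR adjusted p under 0.05, and up to 4 of them per list are labelled. Myo6 (3.34) leads the endocytic partners, and Axin2 (-3.96) and Dkk1 (-4.55) are the lowest on the LRP5 and LRP6 side.

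Neither comparison by reporter activity called a member. In FLK1+/LacZ+ against FLK1+/LacZ- cells and in ENG+/FDG+ against ENG+/FDG- HEI cells, edgeR called 0 of 9 members and 0% of all genes. The groups overlapped for all 9 members, whereas 4.01% and 3.41% of all genes had groups that did not overlap. At an unadjusted p under 0.05 there were 170 and 39 of 13662 genes, and DESeq2 called 8 and 0. That is a smaller share than 0.05, the share this cutoff would pass if no gene differed. With the replicate block edgeR also called 0 genes in both comparisons, with 620 and 161 genes at an unadjusted p under 0.05. Both fits were thus strict here, and 0 calls do not show that no gene differs. In replicates 2 and 3 alone edgeR called 8 and 75 genes. Besides Lrp2, Reln averaged 72.0 ± 14.6 CPM in FLK1+/LacZ+ and 54.5 ± 17.4 CPM in FLK1+/LacZ- cells (0.40 ± 0.62, higher in 3 of 3 pairs), and Dab2 34.3 ± 10.1 and 26.6 ± 7.00 CPM (0.36 ± 0.42, higher in 3 of 3 pairs). Vldlr was lower in 3 of 3 pairs (-0.29 ± 0.40). In ENG+ HEI cells the differences by FDG ran between -0.48 ± 0.65 for Reln and 0.27 ± 0.54 for Cubn.

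Genes with a pattern like that of Lrp2 and Reln were ranked by Pearson's r of log2 CPM over the 15 libraries, after the mean of each replicate number was taken away, among 9507 genes. Closest to Lrp2 were Msh6 (0.940), Cfl1 (0.920), Ikzf2 (0.916), Ubxn2a (0.915) and Myb (0.914). In ENG+/FDG+, ENG-/FDG+ and ENG+/FDG- HEI cells, Msh6 averaged 162.3, 228.5 and 170.2 CPM and Cfl1 641.2, 778.4 and 665.1 CPM. Myb, a transcription factor of blood progenitors, differed more, at 7.96, 100.5 and 10.96 CPM in the same groups. Closest to Reln were Hdgf (0.981), Eif5a (0.979), Psmc3ip (0.975), Wdr18 (0.972) and Sephs2 (0.965). Among the members, Dab2 and Reln had r = -0.928, Cubn and Dab2 0.911, Lrp1 and Vldlr 0.887, and Lrp2 and Reln 0.481. Over the 15 libraries Lrp2 had r = -0.0539 with Cubn and -0.205 with Dab2. These values describe 15 libraries of 5 groups that share a pattern of groups, and carry no test.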

How the data were processed

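Reads were aligned with STAR 2.4.0 to mm10 and counted with HTSeq 0.6.1, per the submitters' processing notes. RNA was amplified with a Nugen kit, per the labels' protocols, and the deposited table holds raw counts per gene. The annotation, strand setting and filters were not given in the sources used here, and antisense genes or pseudogenes overlap Lrp1, Lrp8, Cubn, Dab2 and Reln. Of 24061 rows, 27 with calendar dates for symbols were dropped.

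Counts were tested with edgeR 4.0.16 (filterByExpr, TMM, robust quasi-likelihood, R 4.3.3) on all 15 libraries without a block, with Benjamini-Hochberg adjustment over 13662 genes and a threshold of 0.05. DESeq2 1.42.0, other scalings and filters, a replicate block, replicates 2 and 3 only and leaving out each library were alternatives. The replicate numbers were taken as pairing the libraries, since deviations from group means correlated at 0.432 to 0.867 in all 30 same-number pairs. Replicates 2 and 3 of different groups also correlated, at 0.429 to 0.636, and replicate 1 with either at -0.764 to -0.475, so the block mainly sets replicate 1 apart from the others. The biological coefficient of variation was 0.477 without and 0.2 with the block. Levels per length use the union of GENCODE M21 exons. The scripts were tested on simulated data. Intervals of counts cover counting error only.

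The 9 members and all lists were chosen with earlier results of these data known. Named genes were the members, up to 4 called genes of each list by smallest adjusted p, markers, and the 5 genes most like Lrp2 and Reln among those reaching 10 CPM in a group. Amn was added for its link to Cubn. Some genes of the lists are not reported here and were left out of the lists' counts.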

Additional observations from a re-analysis of the deposited data

How the results depend on the processing

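The number of genes past the threshold moved most with the treatment of the replicates. FLK1+/LacZ+ against FLK1+/LacZ- had 0 calls, with 0 with the replicate block, 8 in replicates 2 and 3 only and 8 by DESeq2. It had 0 to 1 when 1 library was left out. ENG+/FDG+ against ENG+/FDG- HEI had 0, with 0 with the replicate block and 75 in replicates 2 and 3. ENG+/FDG+ against ENG-/FDG+ HEI had 38, with 12 without a filter, 65 with the filter of 5 CPM, 1482 with the replicate block, 3899 in replicates 2 and 3, 0 in edgeR with only the groups compared (752 at an unadjusted p under 0.05), 441 by DESeq2 and 0 to 61 with 1 library left out. ENG-/FDG+ against ENG+/FDG- HEI had 48, with 13 without a filter, 1515 with the block, 3605 in replicates 2 and 3, 0 in edgeR with only the groups compared (743 at an unadjusted p under 0.05), 445 by DESeq2 and 0 to 62 with 1 library left out. HEI against FLK1+ had 5096, with 9039 with the block, 9815 in replicates 2 and 3 and 4656 to 5732 with 1 library left out. Any difference among the 5 groups had 3176, with 7973 with the block, 9672 in replicates 2 and 3 and 2577 to 3824 with 1 library left out.

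Besides the calls of members given with the results, the replicate block brought Lrp1 (adjusted p = 0.00772), Lrp5 (0.0172) and Lrp8 (0.00558) past the threshold in the test of the 5 groups and changed no other call. In replicates 2 and 3, Lrp1 fell (-0.57) and Vldlr fell (-0.75) in ENG-/FDG+ against ENG+/FDG- HEI, both against the sign over all libraries. The Vldlr value was -0.01 with RLE size factors, -0.00 without a filter and -0.01 by DESeq2. Other signs that turned belonged to uncalled differences: Lrp1 by FDG in ENG+ HEI (-0.09 with the block, -0.32 in replicates 2 and 3), Dab2 in the same comparison (0.25 in replicates 2 and 3) and Lrp1 in ENG+/FDG+ against ENG-/FDG+ HEI (0.26 in replicates 2 and 3). The cause was not tested.

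With 1 library left out, signs also turned, all in uncalled differences. By LacZ in FLK1+ cells the ranges were -0.64 to 0.10 for Lrp1, -0.53 to 0.44 for Lrp5, -0.27 to 0.09 for Lrp6, -0.07 to 0.38 for Lrp8 and -0.17 to 0.91 for Cubn. By FDG in ENG+ HEI they were -0.38 to 0.23 for Lrp2, -0.44 to 0.29 for Lrp1, -0.65 to 0.38 for Lrp5, -0.29 to 0.11 for Lrp6, -0.13 to 0.00 for Lrp8, -0.01 to 0.43 for Vldlr and -0.23 to 0.23 for Dab2. In ENG+/FDG+ against ENG-/FDG+ HEI they were -1.12 to 0.70 for Lrp1, -0.01 to 0.81 for Lrp5, -0.11 to 0.23 for Lrp6, -0.38 to 0.05 for Lrp8 and -0.07 to 0.75 for Vldlr. In ENG-/FDG+ against ENG+/FDG- HEI they were -0.67 to 1.09 for Lrp1, -0.36 to 0.04 for Lrp6, -0.11 to 0.29 for Lrp8 and -0.55 to 0.28 for Vldlr. HEI against FLK1+ gave -0.10 to 0.35 for Lrp5. RLE in place of TMM scaling moved the median of all genes by at most 0.02 in any comparison, and 3 libraries a group limit what can be called.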
